A study of Caenorhabditis elegans with 12 samples.

Results

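The genes described here are those of Caenorhabditis elegans with names that begin with spe, for defective spermatogenesis, with ttbk, for tau tubulin kinase, or with a prefix of 7 other sperm-linked gene families (msp, msd, msrp, nspd, ssp, sss and spch). Membership was set by gene name, and earlier results of these data were known when the names were chosen. Of 8187 named genes on the array, 25 fitted the rule, on 28 of the 22370 probes. They were 10 spe genes, 8 ttbk genes and 7 msrp genes, and each gene was read from 1 probe, with the other probes of 3 genes given apart. No probe carried an msp, msd, nspd, ssp, sss or spch name. The RefSeq annotation WBcel235 names 34 protein-coding spe genes, 9 ttbk genes and 7 msrp genes, so all msrp genes, all ttbk genes but ttbk-2.1, and 10 of 34 spe genes were measured under their names. The major sperm protein genes and the kinase gene spe-6, both hallmarks of worm sperm, are not analysed here, so the label of the group as sperm genes rests on names and could not be checked against those markers.

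The worms were N2, the wild-type strain, and hermaphrodite. They were grown from the egg at 20 °C and then spent 48 h at 25 °C on NGM plates, either plain (control) or with 10 mM lithium chloride (LiCl). Their age at the shift is not stated. Each group had 6 samples of 50 picked worms, which the submitters describe as biological replicates, and each sample was hybridised to 1 array in Cy5 against a Cy3-labelled pool of N2 worms of mixed stages. The values are the deposited log ratios of sample over reference. Array medians lay between 0.018 and 0.044, so the arrays may have been centred. In that case 0 marks a typical probe rather than equal signal. As every sample was in Cy5, a level against the reference cannot be told apart from a dye effect of the probe. The log base is not stated, and the interquartile range lay between 1.332 and 1.344 on every array, so the arrays may have been scaled, and no fold change is given. The direction of the ratio is likely from the dyes rather than stated. With the ratio turned, each level and each difference below would change sign.

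Hermaphrodites of C. elegans make sperm during larval life, store it in the spermatheca and then switch to making oocytes. The sperm are amoeboid and crawl with a cytoskeleton of major sperm protein, which is packed into fibrous bodies while the sperm form. Round spermatids are activated into crawling spermatozoa, and further spe genes act when sperm meet the egg. Tau tubulin kinases belong to the casein kinase 1 superfamily, which is greatly expanded in C. elegans, and the sperm kinase SPE-6 belongs to the same superfamily. In mammals, tau tubulin kinases phosphorylate tau, and one of them is needed to build cilia. The samples were whole worms, so fewer sperm and less RNA per sperm cell cannot be told apart in them.

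Among the 25 genes, spe-51 and ttbk-3 were higher in LiCl worms, spe-57 was lower, and the other 22 did not pass the test (limma, adjusted p under 0.05 over all probes). By family, 1 of 10 spe genes rose and 1 fell, and 1 of 8 ttbk genes rose and none fell. None of 7 msrp genes passed, and 1 had an unadjusted limma p under 0.05, as did 5102 of all 22370 probes. Over all 22370 probes 8.00% were called, 4.50% higher and 3.50% lower, so 3 of 25 genes is close to the share of the whole array. The median difference, LiCl minus control, was 0.014 over the spe genes, 0.136 over the ttbk genes and 0.031 over the msrp genes, beside 0.019 over all probes. Differences went both ways, with 13 genes above 0 and 12 below.

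**Figure D1:**
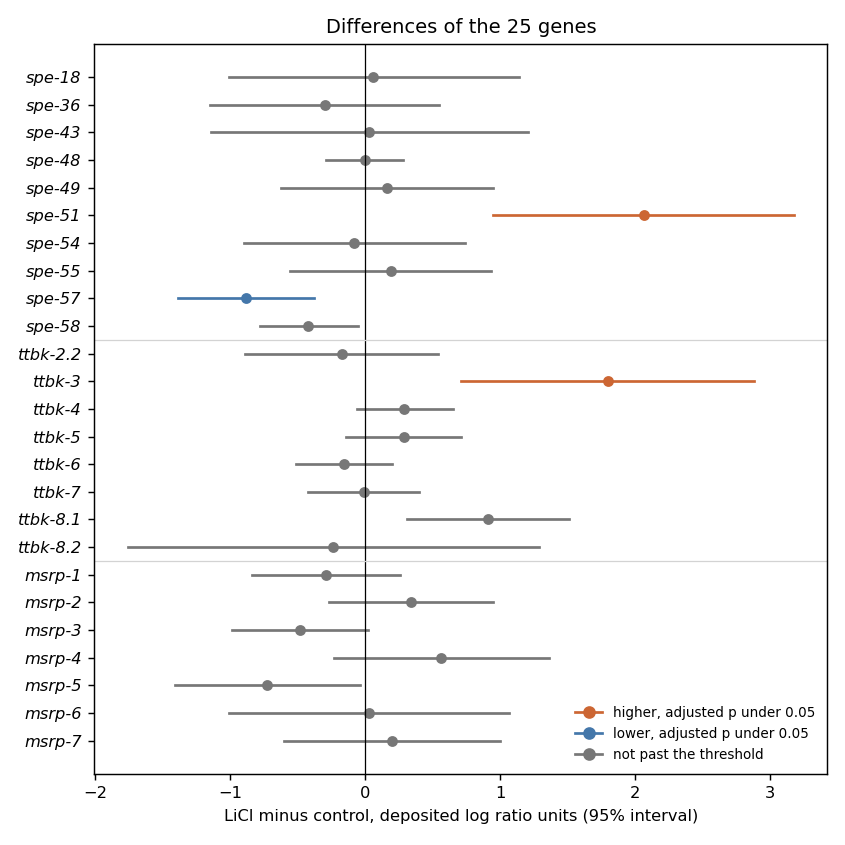
Difference of each of the 25 genes, LiCl minus control, in deposited log ratio units (x axis), with points for the estimate and lines for the 95% interval from limma, by family from top to bottom. The intervals of spe-51 (0.95 to 3.18) and ttbk-3 (0.71 to 2.88) lie above 0 and that of spe-57 (-1.39 to -0.38) below it, while most others span 0.

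spe-51 encodes a protein with an immunoglobulin-like fold that sperm secrete and that is needed for fertilisation. Its log ratio on control replicates 1 to 6 was 0.96, -0.17, -0.12, 0.04, -1.17 and 2.07. On LiCl replicates 1 to 6 it was 2.58, 1.03, 1.77, 3.42, 2.45 and 2.77. Control replicate 6 lay above LiCl replicates 2 and 3, so the groups overlapped, and 4 of 6 LiCl arrays were above every control array. The control mean was 0.27 ± 1.11 (SD, n = 6) and the LiCl mean 2.34 ± 0.83 (SD, n = 6). They differed by 2.07 ± 0.51 (SE), with an adjusted p of 0.0281. Its size exceeded that of 99.6% of all probes. The call was lost without control replicate 2, 3, 4 or 5 or LiCl replicate 1, 4, 5 or 6 (adjusted p between 0.0519 and 0.0616), while the difference stayed between 1.78 and 2.43.

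The other spe genes with a role in fertilisation did not pass. spe-36, which encodes another secreted sperm protein needed for fertilisation, had values of 0.44 to 2.27 in controls with a median of 1.81, and of 0.41 to 2.44 in LiCl with a median of 1.28. Its groups overlapped almost wholly, and the difference was -0.30, with a 95% interval of -1.15 to 0.55. spe-49 encodes a sperm membrane protein needed at the same step and had no value on control replicate 6. It ranged from -0.89 to 0.65 in 5 controls (median -0.17) and from -1.29 to 0.82 in LiCl (median 0.03), a difference of 0.16 with an interval of -0.62 to 0.95. These 2 intervals do not reach the 2.07 estimated for spe-51. That estimate has its own interval of 0.95 to 3.18, which starts at the value where that of spe-49 ends. The difference between genes was not tested.

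Genes of earlier steps gave values on both sides of the reference. spe-18, whose product helps to form the fibrous bodies, had 4 of 6 control and 5 of 6 LiCl arrays above 0 and a difference of 0.06, with an interval of -1.01 to 1.14. spe-43, which acts in spermatid activation, ran from -1.61 to 1.22 in controls and from -1.32 to 0.78 in LiCl. Its arrays scattered more than those of 92.4% of all probes, and its interval for the difference, -1.14 to 1.21, is among the widest of the spe genes.

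spe-57 was the spe gene that fell. It had no value on control replicate 1, and control replicates 2 to 6 gave 0.58, 0.53, 0.56, 0.86 and 0.19. LiCl replicates 1 to 6 gave -0.33, -0.88, 0.21, -0.19, 0.03 and -0.88. All controls were above 0, whereas 4 of 6 LiCl arrays were below it. The groups overlapped through control replicate 6 and LiCl replicate 3 only. The control mean was 0.54 ± 0.24 (SD, n = 5) and the LiCl mean -0.34 ± 0.46 (SD, n = 6). LiCl minus control was -0.88 ± 0.23 (SE), with an adjusted p of 0.0383. This call was lost without control replicate 2, 3, 4 or 5 or LiCl replicate 1, 2, 4 or 6 (adjusted p between 0.0570 and 0.0841). With the replicate number as a block the adjusted p was 0.0593.

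Of the remaining spe genes, spe-58 came nearest to the test. It was above 0 on all 12 arrays, from 1.27 to 2.14 in controls (median 1.73) and from 0.95 to 1.51 in LiCl (median 1.3). LiCl replicates 2 and 3 lay below every control, and the difference was -0.42 ± 0.17 (SE, adjusted p = 0.16). spe-48 was the steadiest of the 25 genes. It held between 0.35 and 0.77 in controls and between 0.36 and 0.73 in LiCl, with a difference of 0.00 and an interval of -0.29 to 0.28. Only 1.50% of all probes had a smaller spread between arrays. spe-54 (difference -0.08, interval -0.90 to 0.74) and spe-55 (0.19, interval -0.56 to 0.93) overlapped between the groups on most arrays.

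**Figure D2:**
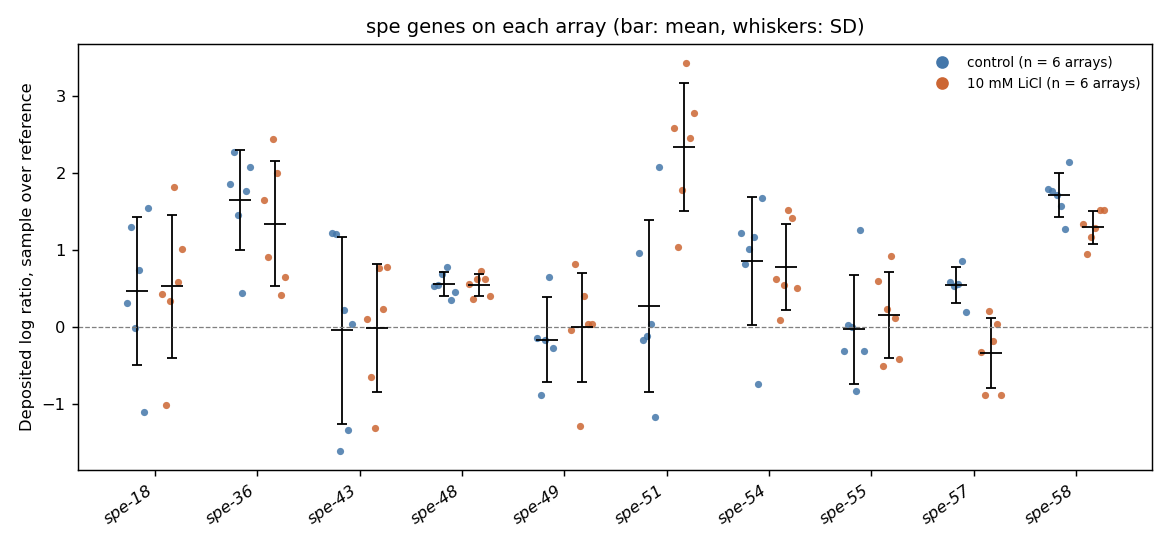
Deposited log ratio of each spe gene (y axis) on each control (blue) and LiCl (orange) array, with bars for the mean and whiskers for the SD of 6 arrays per group, or of 5 controls for spe-49 and spe-57. The LiCl arrays of spe-51 sit between 1.03 and 3.42 and those of spe-57 between -0.88 and 0.21. The groups overlap in every spe gene, these 2 included.

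Relative to the mixed-stage pool, 7 of 10 spe genes had a control mean above 0 and 7 of 10 a LiCl mean above 0. With the ratio turned, 3 of 10 would be above 0 in each group. In controls the means ran from -0.17 for spe-49 to 1.71 for spe-58. Of all probes, 11717 of 22370 had a control mean above 0. What share of the pool was worms making sperm is not given, so these ratios do not say how much sperm RNA the samples held.

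In the kinase family, ttbk-3 rose and was the one gene of the 25 whose groups did not overlap. Over all probes 6.61% had groups that did not overlap. Control replicates 1 to 6 gave 1.55, 0.93, 0.33, 1.32, -0.27 and 1.20. LiCl replicates 1 to 6 gave 4.86, 1.87, 2.13, 2.63, 1.67 and 2.67. Every LiCl array was above every control, but the lowest LiCl and highest control values lay close together, and LiCl replicate 1 stood far above the rest. The control mean was 0.84 ± 0.69 (SD, n = 6) and the LiCl mean 2.64 ± 1.16 (SD, n = 6). They differed by 1.80 ± 0.50 (SE), with an adjusted p of 0.0456. Without LiCl replicate 1 the difference was 1.35 and the adjusted p lower, 0.0347. The call was lost without any single control array, and without LiCl replicate 3, 4 or 6 (adjusted p between 0.0518 and 0.0945).

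ttbk-8.1 was next in size and did not pass. On its first probe controls gave -0.66, -0.34, -0.91, -0.42, -1.51 and -0.90, all below the reference. LiCl replicates 1 to 6 gave -0.45, 0.19, 0.30, 1.09, -0.05 and -0.37, and 4 of 6 lay above every control. The difference was 0.91 ± 0.28 (SE, adjusted p = 0.0646). It passed with array weights (0.98, adjusted p = 0.0386). The second probe of the gene did not show it. That probe gave 0.52, -0.25, 0.93, 0.25, -0.38 and 0.34 in controls, and 0.33, 0.03, 0.23, 0.48, -0.04 and 0.18 in LiCl. Its groups overlapped throughout, and the difference was -0.03, with an interval of -0.51 to 0.44, against 0.31 to 1.51 on the first probe.

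ttbk-8.2 also had 2 probes. On the first the arrays scattered more than on 98% of all probes, with 0.25, -0.31, 0.65, -0.48, 0.62 and 2.33 in controls and -2.35, 0.54, 0.10, 1.33, 2.45 and -0.44 in LiCl. The difference was -0.24, with a wide interval of -1.76 to 1.29. The second probe gave -0.26, -0.75, -0.06, -0.43, 0.15 and 0.64 in controls and -0.12, -0.23, -0.04, 0.09, 0.91 and 0.69 in LiCl, and its difference was 0.34, with an interval of -0.24 to 0.91. Probe sequences were not used here, so whether a probe also binds transcripts of other ttbk genes was not tested.

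The remaining ttbk genes showed small differences. ttbk-4 had 0.31, 0.39, 0.26, 0.04, 0.19 and -0.20 in controls and 0.82, 0.14, 0.40, 0.22, 0.71 and 0.46 in LiCl. The highest 4 LiCl values exceeded every control. Its difference was 0.29 ± 0.16 (SE, adjusted p = 0.322). ttbk-5 had 0.53, 0.49, 0.53, 0.85, 0.59 and 1.09 in controls and 0.77, 0.80, 0.90, 1.70, 1.02 and 0.62 in LiCl. Its difference was also 0.29, with an SE of 0.20 and an adjusted p of 0.428. Both were thus slightly above their controls on average, and neither passed.

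ttbk-6 had 0.30, -0.14, -0.33, -0.08, -0.41 and -0.23 in controls and -0.57, -0.46, -0.10, -0.03, -0.51 and -0.15 in LiCl, a difference of -0.16 ± 0.16 (SE). ttbk-7 was below the reference on all 12 arrays, at -0.64, -0.83, -0.79, -1.22, -1.04 and -1.18 in controls and -1.01, -1.10, -0.88, -1.03, -0.33 and -1.43 in LiCl. Its means were nearly equal, with a difference of -0.01 and an interval of -0.42 to 0.40. ttbk-2.2 had -0.56, -0.56, 0.42, 0.40, -1.03 and 0.08 in controls and -0.65, -1.31, -0.17, -0.66, 0.02 and 0.48 in LiCl, with overlapping groups and a difference of -0.17 ± 0.33 (SE).

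**Figure D3:**
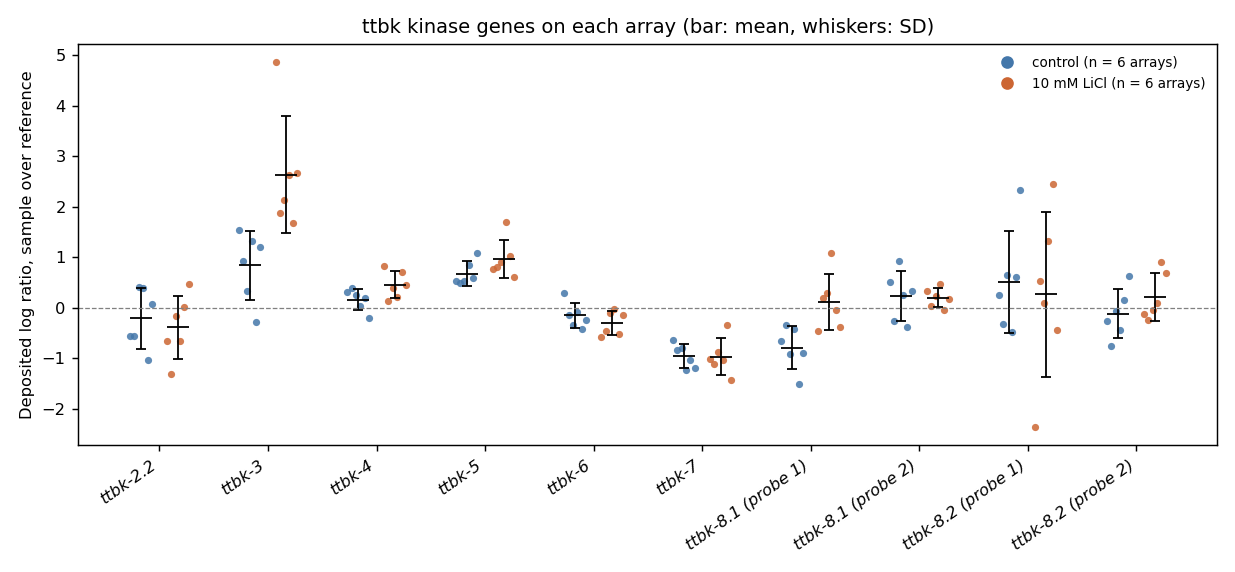
Deposited log ratio of each ttbk gene (y axis) on each control (blue) and LiCl (orange) array, with bars for the mean and whiskers for the SD of 6 arrays per group; genes with 2 probes are shown once per probe. The groups of ttbk-3 do not overlap, and the 2 probes of ttbk-8.1 differ by 0.91 and -0.03 between the groups.

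None of the 7 msrp genes, the only other family with named probes, passed the test. The largest differences were -0.73 ± 0.32 (SE, adjusted p = 0.189) in msrp-5 and 0.56 ± 0.37 (SE, adjusted p = 0.403) in msrp-4. msrp-5 had controls from -0.87 to 1.01 (median 0.25), and 5 of 6 LiCl arrays were below 0, with a highest value of 0.30 on LiCl replicate 6. msrp-7 was the gene furthest from the reference, with a control mean of -2.29 ± 0.35 (SD, n = 6) and a LiCl mean of -2.09 ± 0.91 (SD, n = 6). msrp-3 had the highest control mean of the family, 0.54 ± 0.45 (SD, n = 6), and a difference of -0.48. msrp-1 differed by -0.29 and msrp-2 by 0.34. The 2 probes of msrp-6 gave differences of 0.03 and -0.10, and their pooled SDs were 0.91 and 0.25. msrp-5 and msrp-6 are next to each other in the genome. The interval of msrp-5, -1.41 to -0.04, overlapped that of msrp-6, -1.01 to 1.07, and the difference between the genes was not tested.

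The precision of these comparisons differed by gene. The pooled SD between arrays of a group had a median of 0.68 over the spe genes, 0.41 over the ttbk genes and 0.58 over the msrp genes, against 0.48 over all probes. Of the 22 genes that did not pass, 13 had a 95% interval that lay wholly between -1 and 1, and 2 of these, spe-48 and ttbk-7, lay between -0.5 and 0.5. For the other 9 genes a difference of 1 in at least one direction remained within the interval.

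The mean of the spe genes differed between arrays of the same group. The mean log ratio was lowest on control replicate 5 (0.09) and LiCl replicate 2 (0.11) and highest on control replicate 6 (1.09) and LiCl replicate 4 (1.26). The mean was over 9 genes on control replicate 1, without spe-57, and on control replicate 6, without spe-49, and over 10 elsewhere. The ranges of the array means were 0.09 to 1.09 in controls and 0.11 to 1.26 in LiCl, and so overlapped. LiCl replicate 2 was the lowest LiCl array in 12 of the 25 genes, against 21.5% of all complete probes, and control replicate 5 the lowest control in 10 of 25, against 21.9%. LiCl replicate 4 was the highest LiCl array in 9 of 25, against 14.1% of probes. Control replicate 5 and LiCl replicate 2 also had low array weights in limma, 0.698 and 0.612, where the highest weight was 1.6. The lowest weight, 0.524, was that of LiCl replicate 1, which was the lowest LiCl array in 3 of the 25 genes and the highest in 2. With all arrays weighted in this way, spe-51 (adjusted p = 0.0294) and ttbk-3 (0.0362) passed and spe-57 did not (0.0537). With the 4 arrays of lowest weight left out (control replicate 5 and LiCl replicates 1, 2 and 6), none of the 25 genes passed in limma. Of the 25, 5 had an unadjusted p under 0.05, which was not counted over all probes on these arrays. Over all probes 3.75% were called on these arrays. There spe-51 differed by 1.99 (adjusted p = 0.109), spe-57 by -0.45 (adjusted p = 0.26) and ttbk-3 by 1.08 (adjusted p = 0.113), on 8 arrays.

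**Figure D4:**
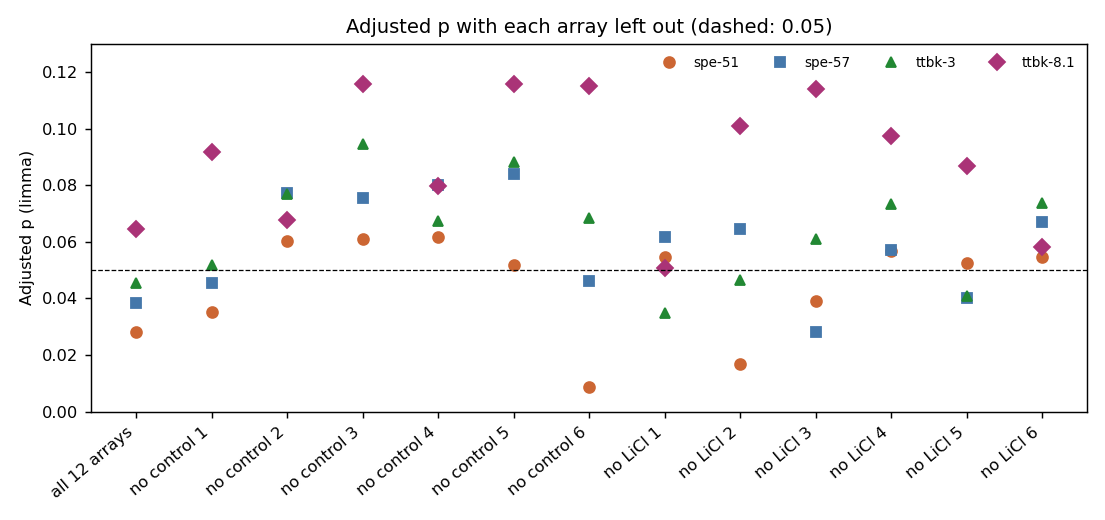
Adjusted p from limma (y axis) of spe-51, spe-57, ttbk-3 and ttbk-8.1 on all 12 arrays and with each array left out in turn (x axis), with a dashed line at 0.05. The first 3 genes lie below the line with all arrays and above it in 8, 8 and 9 of the 12 fits on 11 arrays, and ttbk-8.1 lies above it in all of them.

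Of 16 genes of related steps that carry named probes, 2 fell and none rose on the first probe, against 3.50% lower and 4.50% higher over all probes. The lists were of sperm genes outside the naming rule, casein kinase 1 genes, regulators of sperm fate and small RNAs, oocyte and eggshell genes, yolk genes, uterine lumen genes, and genes of the male tail and mating. The casein kinase, yolk and male lists had no named probe, as did the larval cuticle markers. Of sperm genes outside the rule, the cylicin genes cylc-1 (-0.95 ± 0.46, SE) and cylc-2 (1.03 ± 0.52, SE) were measured and did not pass, and their other probes gave 0.07 and -0.56. The splicing gene mog-7, of a group in which loss of function keeps the germline making sperm, differed by -0.09. Of 9 genes on the oocyte and eggshell list, which was set by gene names, none passed in limma on the first probe. Their differences ran from -0.46 to 0.66. All but the 3 memi genes are cpg genes, and whether these cpg genes act in the egg or eggshell was not checked. Of the 9, 2 had an unadjusted p under 0.05, against 5102 of all 22370 probes. The second probe of memi-2, a maternal gene that acts in the egg after fertilisation, fell by 0.63 (adjusted p = 0.0148). Its first probe did not pass (-0.46, adjusted p = 0.153). The other probes of memi-1 (-0.23, adjusted p = 0.638) and cpg-23 (0.65, adjusted p = 0.394) did not pass either. The 3 oocyte markers of this list, memi-1, memi-2 and memi-3, had array means of 1.23 to 1.93 in controls and 0.81 to 1.47 in LiCl. The rest of the list, all cpg genes, lay below the reference in controls, with means from -2.37 (cpg-18) to -0.23 (cpg-24). Their differences went both ways, from -0.30 (cpg-19) to 0.66 (cpg-20). In the uterine lumen list, whose products lie where eggs pass, ule-3 fell by 1.65 ± 0.26 (SE, adjusted p = 0.00231) and ule-5 by 1.72 ± 0.21 (SE, adjusted p = 0.000468), while ule-1 and ule-4 differed by 0.13 and -0.19. Whether these moved with the sperm genes was not tested.

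The gene order of the annotation adds what lies beside these genes. Of the 8 ttbk genes, 6 lie on 1 chromosome, where ttbk-4 and ttbk-5 are separated by 7 protein-coding genes and ttbk-2.2 and spe-55 by 6. Within 3 protein-coding genes of the 25, there were 51 other genes with a named probe, of which 4 were higher and 1 lower in LiCl, a share close to the 8.00% of all probes. Of these 4 genes, 2 lie beside ttbk-8.1. Y38H8A.2, the next gene, gave 0.68, 1.01, 1.69, 0.29, -0.95 and -0.62 in controls and 4.62, 2.56, 4.37, 3.10, 2.93 and 2.31 in LiCl. Its groups did not overlap, and they differed by 2.96 ± 0.51 (SE) with an adjusted p of 0.00406. Y38H8A.1, 3 genes away, had all controls below 0 and all LiCl arrays above it, with a difference of 1.89 ± 0.27 (SE, adjusted p = 0.00128).

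On the other side of ttbk-8.1, Y38H8A.4 gave 0.33, 0.62, 0.01, 0.01, -0.12 and 0.95 in controls and 5.67, 2.43, 2.78, -0.35, 1.27 and 0.51 in LiCl. The LiCl arrays thus ran from below every control to far above them, and the difference of 1.75 ± 0.79 (SE, adjusted p = 0.208) did not pass. The annotation gives no function for these 3 genes, and they were singled out after their values were seen. The other 3 neighbours that passed were ZK484.7 near msrp-2 (1.04), F55H12.2 next to spe-54 (0.69) and grif-1 near spe-48 (-1.07). The genes next to or near ttbk-3 and spe-51 did not pass, with F32B6.4 at -1.33 (adjusted p = 0.084), prp-18 at -0.25 and kin-36 at 0.08. gskl-1, which encodes a kinase like glycogen synthase kinase 3, lies near spe-57 and differed by -0.20 ± 0.35 (SE, adjusted p = 0.794).

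**Figure D5:**
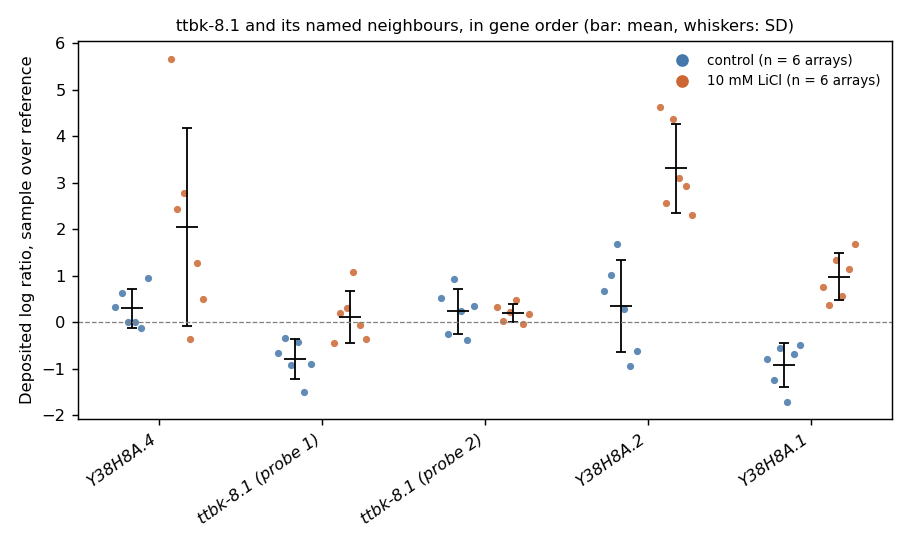
Deposited log ratio (y axis) of ttbk-8.1, on 2 probes, and of its neighbours with a named probe, in the order of the genes on the chromosome, on each control (blue) and LiCl (orange) array, with bars for the mean and whiskers for the SD of 6 arrays per group. Groups do not overlap in Y38H8A.2 and Y38H8A.1, and overlap on both ttbk-8.1 probes and in Y38H8A.4.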

How the data were processed

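Amplified RNA of 12 samples was hybridised to 2-colour arrays. The authors deposited 1 processed log ratio per probe and array. The deposited values have no stated log base, and calling them log2 is an assumption that no test here needs. How they normalized the arrays and filtered spots, and with what software, was not given in the sources used. Between 16 and 150 probes lacked a value on an array, and array medians lay between 0.018 and 0.044. Probe names came from the platform annotation, with 8757 of 22370 probes named, and were updated by gene identifier to WBcel235 for 8724. For each gene the probe with values on most arrays was used, then the lowest number.

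Groups were compared with limma 3.58.1 in R 4.3.3 by linear models with empirical Bayes moderation. The tests were two-sided and without covariates, used the deposited values unchanged, and ran over all probes with at least 4 values per group (2 where 8 arrays were kept), with Benjamini-Hochberg adjustment over all probes and a threshold of 0.05. Intervals are 95% intervals of the moderated difference. Every spe and ttbk gene is named, with all arrays given for each ttbk gene and each of the 25 genes that passed. Of the msrp family and the other lists, genes named beyond those that passed, and the neighbours, were chosen with their values known. The members and lists were chosen with earlier results of these data known. Simulated arrays, again of 22370 probes, were used to test the code, with independent normal noise and 50 probes shifted per size. Of the shifts, 2% of 0.5, 42% of 1, 76% of 2 and 90% of 3 were recovered. There were 6 false calls among 111, and 0 calls were made without a shift. Far fewer probes were shifted there than the 1789 called in the data. These shares therefore do not give the chance of a call in the real comparison. The number of arrays limits the precision. Same-numbered arrays deviated together (r above 0.1) in 1 of 6 pairs, so numbers were not taken as pairs. Figures used matplotlib 3.10.9.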

Additional observations from a re-analysis of the deposited data

Results flagged for a closer look

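In 6 of 50 groups of arrays, 1 array stood far from the other arrays of its group, and about 1 in 20 groups, here 2.5, would do so by chance. LiCl replicate 1 was at 4.862 in ttbk-3, with the other LiCl arrays between 1.671 and 2.673. LiCl replicate 2 stood apart in 3 msrp genes, at -0.263 in msrp-4 (others from 0.702 to 0.953), 2.132 on the first probe of msrp-6 (others from -0.786 to 0.077) and -3.792 in msrp-7 (others from -2.151 to -1.276). LiCl replicate 6 was at 0.301 in msrp-5, above -0.517. Control replicate 5 was at -0.744 in spe-54, where the other controls lay between 0.825 and 1.667.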

How the results depend on the processing

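The count of 1789 probes over the whole array became 622 with only the more variable probes kept (SD at or above the median), 2836 at an adjusted p under 0.10 and 838 on the 8 arrays of higher weight, and 1181 to 1600 with 1 array left out, lowest without control replicate 4. The count of 2 spe genes became 1 with only the more variable probes kept, 1 with probes measured on all arrays, 1 with array weights, 1 with the replicate number as a block, and 0 on the 8 arrays. Leaving out 1 array gave 0 to 2 spe genes, with 0 when control replicate 2, 3, 4 or 5, or LiCl replicate 1, 4 or 6, was missing. The count of 1 ttbk gene became 2 with array weights, 2 at an adjusted p under 0.10 and 0 on the 8 arrays, and leaving out 1 array gave 0 to 1. No msrp gene passed under any setting run. The 8 arrays were chosen after seeing the data. Fewer arrays were tested there and when 1 was left out, and spe-57 was not tested with probes measured on all arrays. No other cause of a lost call was tested. The differences of spe-51, spe-57 and ttbk-3 kept their sign in all settings that gave them a value. The replicate block changed no other call among the 25 genes.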
